A study of Homo sapiens with 6 samples.

Results

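LIN28B is an RNA-binding protein that holds back the let-7 microRNAs, and the 10 genes described here are LIN28B itself, 3 of the best known let-7 targets (HMGA2, IGF2BP1 and IGF2BP3), and 6 genes that make or use microRNAs (DROSHA, DGCR8, XPO5, DICER1, AGO1 and AGO2). They were picked by gene symbol, through the Ensembl gene IDs of the count table, and are 10 of its 64252 rows. Of these, 9 passed the filter on low counts and were among the 18734 genes tested, and HMGA2 did not. The cells were SK-N-BE(2), an established human neuroblastoma line in which MYCN is amplified, and messenger RNA was read by bulk sequencing in 6 libraries. The control group (shControl, labelled shNC) was transfected with a control short hairpin RNA, and the groups shBCAT1#1 and shBCAT1#2 (hairpin 1 and hairpin 2 below) with a hairpin against BCAT1, an enzyme of the cytosol that moves the amino group of leucine, isoleucine and valine. Each group had 2 libraries, all from 1 cell line, and the labels used here give neither hairpin sequences nor a time after transfection. The labels do not say that the 2 libraries of a group came from separate cultures, so the spread behind the p-values may be technical rather than that of independent cultures.

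A microRNA begins as a hairpin in a longer transcript. DROSHA, guided by its partner DGCR8, cuts the hairpin free in the nucleus, XPO5 carries it to the cytoplasm, DICER1 cuts off its loop, and an Argonaute protein such as AGO1 or AGO2 holds the mature strand and pairs it with messenger RNAs. let-7 is the microRNA family best known for rising as cells differentiate; LIN28B binds its precursors and blocks their processing, and the LIN28B messenger RNA is itself a let-7 target, so each holds the other back. In neuroblastoma LIN28B is a known oncogene and MYCN is among the let-7 targets. Short hairpin RNAs, those of the control group included, are trimmed and loaded by XPO5, DICER1 and Argonaute proteins as well. No mature microRNA was measured in these libraries.

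The mature let-7 strands are shown because the target sites discussed with each gene were found from their seed. Capitals mark the seed, bases 2 to 8. The 12 family genes were taken by name from the RefSeq miRNA table (GRCh38.p14). They were kept where a mature strand held GAGGUAG at these bases, so the shared seed is by selection.
hsa-let-7a-5p: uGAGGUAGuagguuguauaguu
hsa-let-7b-5p: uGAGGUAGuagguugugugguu
hsa-let-7d-5p: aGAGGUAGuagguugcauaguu
hsa-let-7g-5p: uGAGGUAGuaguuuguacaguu
hsa-miR-98-5p: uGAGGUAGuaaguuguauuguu
All these strands are 22 bases long and differ outside the seed.

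The loops between the arms of the hairpins are shown because LIN28 proteins are known to bind GGAG there. Capitals mark GGAG, read on the transcribed strand only. The loops come from hairpins at chr9:94175957-94176036 (plus strand), chr3:52268278-52268361 (minus), chr22:46113686-46113768 (plus) and chr22:46112749-46112822 (plus) of GRCh38.p14.
let-7a-1 loop: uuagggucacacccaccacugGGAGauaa
let-7g loop: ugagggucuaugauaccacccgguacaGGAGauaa
let-7b loop: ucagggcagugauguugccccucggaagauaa
let-7a-3 loop: uggggcucugcccugcuaugggauaa
GGAG stood after the 5p arm in 9 of the 12 family hairpins, and MIRLET7A3, MIRLET7B and MIR98 lacked it. Among all 739 RefSeq hairpins with both arms listed, 8.12% held GGAG between the arms, and among the 62 whose loops were 23 to 36 bases long, 27.4% did. That range was set by the let-7 loops, and let-7 hairpins were not taken out of either set. Of the 11 let-7 hairpins with both arms listed, 8 held GGAG between the arms. let-7a-3 and let-7b are the hairpins of MIRLET7BHG, a host transcript described further on.

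Candidate let-7 sites were searched in the 3′ untranslated regions (the message after the stop codon) of GENCODE release 29 on hg38, as CTACCTC, the complement of the seed, on the transcribed strand. The 4 sites of LIN28B, the 8-base site of HMGA2 and the single sites of IGF2BP3 and AGO1 are printed because these genes carry the results or the textbook example. They are written as the messenger strand with the 7-base match in capitals; an a after it completes the 8-base form, CTACCTCA.
LIN28B site 1, chr6:105078812-105078834 (plus): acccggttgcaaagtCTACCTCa
LIN28B site 2, chr6:105081239-105081261 (plus): tactgatgatagtaaCTACCTCt
LIN28B site 3, chr6:105081421-105081443 (plus): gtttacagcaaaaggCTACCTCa
LIN28B site 4, chr6:105082860-105082882 (plus): aaatgatggtgttgaCTACCTCt
HMGA2 site 1, chr12:65963298-65963320 (plus): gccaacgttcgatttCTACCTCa
IGF2BP3 site 1, chr7:23311795-23311817 (minus): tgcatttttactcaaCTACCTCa
AGO1 site 1, chr1:35920677-35920699 (plus): ttctccttattcctcCTACCTCc
LIN28B, HMGA2 and IGF2BP1 held 4 matches each, AGO2 held 2, IGF2BP3 and AGO1 held 1 each, and DICER1, DROSHA, DGCR8 and XPO5 held 0. A match is a description of letters in the window searched, and 10.2% of 19126 protein-coding genes had at least 1, with 3.96% holding the 8-base form. Long regions hold more matches by length alone, and the length of a gene here is that of its transcripts' regions merged. Of 787 regions as long as that of LIN28B (4549 bases), 23.5% held a match. The share was 56.2% at the merged length of HMGA2 (12300 bases). It was 32.3% at the length of IGF2BP1, 11.4% at that of IGF2BP3, 45.7% at that of AGO1 and 54.9% at that of AGO2. All 4 HMGA2 matches lay within 1 transcript's region of 3003 bases, and no share was taken at that length. DICER1, with none, had a region of 4386 bases, at which length 23.6% held a match.

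Total counts per library ran from 32333416 to 39321388. BCAT1 was lower in every knockdown library: it stood at 459 and 475 CPM (counts scaled to library size and composition) in controls, 55.8 and 55.3 with hairpin 1 and 116 and 111 with hairpin 2. Summed CPM of 9 adrenergic neuroblastoma markers was 3581 to 3608 in controls, 2925 to 2989 with hairpin 1 and 2740 to 2846 with hairpin 2, with MYCN alone at 2251 and 2271 in controls. Of the 8 such markers tested, 4 rose and 4 fell with hairpin 1, and 1 rose and 7 fell with hairpin 2. Summed CPM of 8 fibroblast markers was 1737 to 1744 in controls, 1080 to 1083 with hairpin 1 and 1260 to 1261 with hairpin 2. Of these 8, 0 rose and 7 fell with hairpin 1, and 1 rose and 5 fell with hairpin 2. In the order control, hairpin 1 and hairpin 2, 5 immune markers summed to 34.5 to 37.8, 29.2 to 33.7 and 14.4 to 17.9. The sums of 6 epithelial markers were 20.8 to 20.9, 18.2 to 20.5 and 25.8 to 26.8. For 4 endothelial markers they were 6.96 to 7.08, 6.53 to 7.43 and 6.14 to 7.09. For 5 markers of Schwann cells and melanocytes they were 6.77 to 7.94, 6.50 to 7.18 and 10.1 to 10.5. Of these markers, CD3E (T cells) and SOX10 (Schwann cells) were at 0 counts in all libraries. The part of these shifts in the results below was not tested. In what follows, a change with both hairpins is the average of hairpin 1 and hairpin 2 on the log2 scale, against control. A gene can therefore be called with both hairpins and not with each. Fold changes followed base composition and length across genes. Over 17459 genes, the log2 change with both hairpins had a Spearman correlation of -0.378 with GC content and 0.340 with transcript length. This is a description across genes that share the same libraries. Of the 10 members, 8 had a GC content under the median of tested genes (49.0%) and all 10 had a longest transcript above the median length, so the members' changes are given also after a correction for GC content and length. In bulk RNA, fewer cells carrying a transcript and less of it per cell cannot be told apart.

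At the level of the whole group, more members were called higher than lower after knockdown. With both hairpins against control, 6 of 9 tested members rose and 0 fell (edgeR quasi-likelihood test, adjusted p under 0.05), with 50% of all tested genes called, 23.6% of them higher and 26.4% lower. With hairpin 1, 6 of 9 rose and 0 fell, beside 49.1% of all genes called, 24.2% higher and 24.9% lower. With hairpin 2, 4 of 9 rose and 0 fell, beside 49.3% of all genes called, 23.9% higher and 25.4% lower. XPO5 and AGO2, among the 6 called with both hairpins, were not called with hairpin 2. Both hairpins were read against the same control libraries, so these counts are not independent of each other. The median log2 change of the 9 was 0.21 with both hairpins, 0.24 with hairpin 1 and 0.18 with hairpin 2, where the median of all tested genes was -0.01 in each. After correction for GC content and length, the split with both hairpins was 3 higher and 2 lower, with a median of -0.05, beside 19.3% of 17459 genes higher and 26.8% lower in that fit. It was then 4 higher and 1 lower with hairpin 1 (all genes 23.1% and 26.2%), and 4 higher and 3 lower with hairpin 2 (all genes 19.7% and 25.7%). Between the hairpins, 1 member was higher with hairpin 2 and 3 were lower, beside 46.2% of all genes called.

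**Figure D1:**
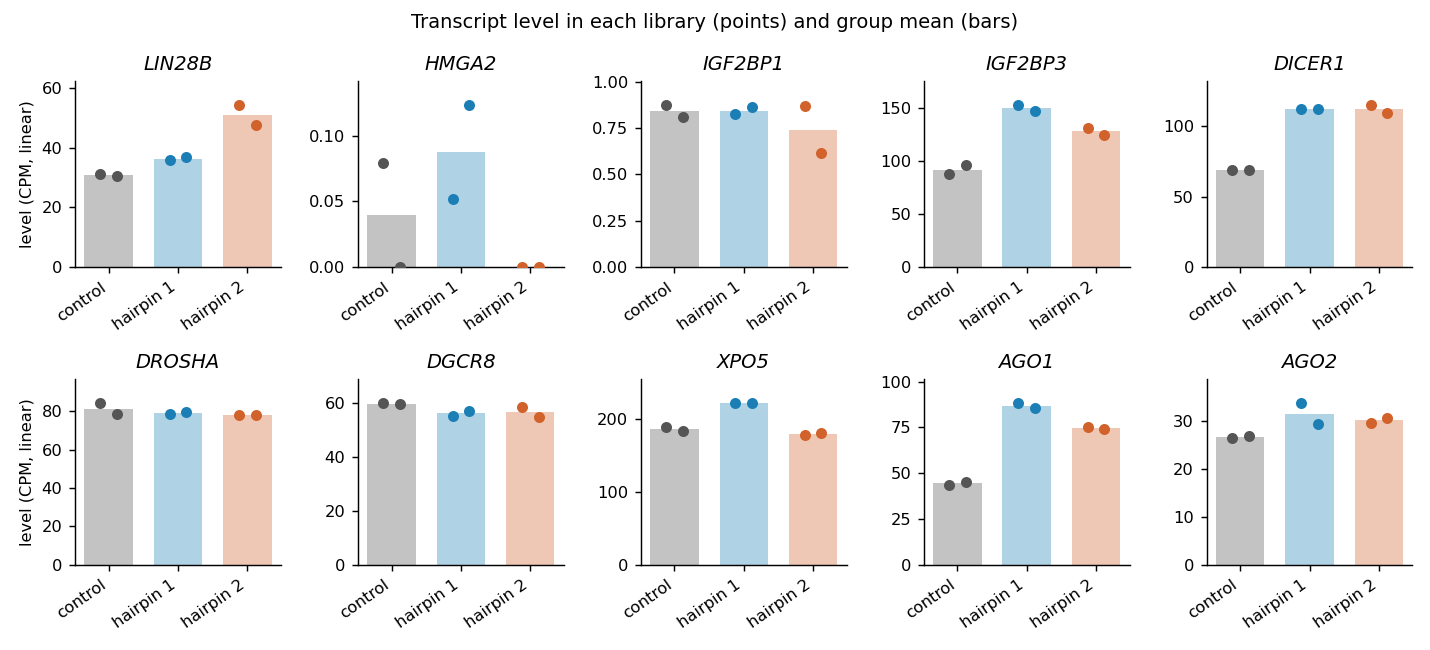
CPM on a linear axis is plotted for each member, with a point for each of the 6 libraries and a bar for the mean of each group. LIN28B was highest with hairpin 2, AGO1 and IGF2BP3 were highest with hairpin 1, and the DICER1 libraries of both hairpins overlapped.

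LIN28B (ENSG00000187772, chr6:104936616-105083332, plus strand, hg38) rose in the knockdown libraries, more with hairpin 2 than with hairpin 1. Its level was 31.0 and 30.6 CPM in controls, 35.7 and 36.7 with hairpin 1, and 54.2 and 47.7 with hairpin 2. The groups did not overlap: both controls were lowest, both hairpin 1 libraries came next and both hairpin 2 libraries were highest. The log2 change was 0.73 ± 0.07 (SE) with hairpin 2 (edgeR adjusted p = 7.03e-05) and 0.23 ± 0.07 with hairpin 1 (edgeR adjusted p = 0.0277). The difference between the hairpins was 0.49 ± 0.07 on the log2 scale, hairpin 2 above hairpin 1 (edgeR adjusted p = 0.000627). Over both hairpins the log2 change was 0.48 ± 0.06 (edgeR adjusted p = 0.000326).

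The rise of LIN28B with hairpin 2 and the difference between the hairpins kept their calls after correction for GC content and length, and the changes with hairpin 1 and with both hairpins did not. The transcript's GC content was 38.1%. Corrected, the log2 change with hairpin 2 was 0.33 (edgeR adjusted p = 0.00363), that with hairpin 1 was -0.05 (edgeR adjusted p = 0.59), and that with both was 0.14 (edgeR adjusted p = 0.096). The excess of hairpin 2 over hairpin 1 was 0.38 after correction (edgeR adjusted p = 0.00118). The hairpin 1 call was also lost when any 1 control or hairpin 1 library was left out (edgeR adjusted p = 0.0734 to 0.0969). With no filter on low counts the hairpin 1 call was lost too (edgeR adjusted p = 0.0616). LIN28A, the paralog that also blocks let-7, had 0 to 2 counts per library and was below the filter.

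The 5 genes whose pattern over the 6 libraries was nearest to that of LIN28B were ARMCX3, ZNF518B, BRAF, DYRK1A and ELK4. Likeness was the root mean square difference of log2 CPM, each gene centred on its control mean, and it ran from 0.0412 for ARMCX3 to 0.0533 for ELK4 among 10999 genes ranked. This ranks genes by likeness and is a description.

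Among the 3 let-7 targets, IGF2BP3 was the one called. IGF2BP3 (chr7:23310209-23470467, minus strand) encodes an RNA-binding protein of fetal tissues and many tumours that stabilises bound messenger RNAs. It stood at 87.5 and 96.0 CPM in controls, 153 and 148 with hairpin 1, and 132 and 125 with hairpin 2. All 4 knockdown libraries were above both controls, and both hairpin 1 libraries were above both hairpin 2 libraries. The log2 change was 0.71 ± 0.05 with hairpin 1 (edgeR adjusted p = 1.53e-05) and 0.48 ± 0.05 with hairpin 2 (edgeR adjusted p = 0.000142). Hairpin 2 was lower than hairpin 1 by a log2 difference of -0.23 ± 0.05 (edgeR adjusted p = 0.00831), the opposite order to LIN28B.

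The rise of IGF2BP3 was smaller after correction for GC content and length and kept its call: the log2 change was 0.52 with hairpin 1 and 0.20 with hairpin 2 (edgeR adjusted p = 3.12e-06 and 0.00238). The difference between the hairpins lost its call without hairpin 1 replicate 1 (edgeR adjusted p = 0.0519) or without hairpin 2 replicate 2 (edgeR adjusted p = 0.0831). Exons of IGF2BP3 overlap those of MALSU1, on the other strand, over 1521 bases (17.9% of IGF2BP3's exons), and whether reads were counted by strand is not given in the sources used here. For MALSU1 the log2 change was -0.05 with hairpin 1 (edgeR adjusted p = 0.548) and -0.28 with hairpin 2 (edgeR adjusted p = 0.00383).

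The other let-7 targets were scarce in this line. HMGA2 (chr12:65824131-65966295, plus strand), a chromatin protein of fetal and tumour cells and the textbook let-7 target, had 3 and 0 counts in controls, 2 and 4 with hairpin 1, and 0 and 0 with hairpin 2. A count of 0 allows up to 3 counts (0.0743 to 0.0924 CPM by library), and no fold was given at these counts. IGF2BP1 (chr17:48997412-49055650, plus strand), a paralog of IGF2BP3, held 24 to 35 counts per library. Its level was 0.873 and 0.811 CPM in controls, 0.825 and 0.863 with hairpin 1, and 0.867 and 0.617 with hairpin 2, and the groups overlapped. The log2 change with both hairpins was -0.09 ± 0.26 (edgeR adjusted p = 0.803) and -0.33 after correction (edgeR adjusted p = 0.356), and at this depth a change of this size was not detectable.

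DICER1, which cuts the loop from each precursor, rose with both hairpins, to levels that overlapped. DICER1 (chr14:95086228-95158010, minus strand) stood at 68.8 and 69.2 CPM in controls, 113 and 113 with hairpin 1, and 115 and 110 with hairpin 2. The knockdown libraries did not overlap the controls, and those of the hairpins overlapped each other. The log2 change was 0.71 ± 0.04 with hairpin 1 (edgeR adjusted p = 4.17e-06) and 0.70 ± 0.04 with hairpin 2 (edgeR adjusted p = 6.67e-06). The difference between the hairpins was -0.00 ± 0.04 (edgeR adjusted p = 0.958). After correction for GC content and length, the log2 change was 0.29 with hairpin 1 and 0.17 with hairpin 2, and both kept their call (edgeR adjusted p = 0.000237 and 0.00854). In that correction the hairpins differed, by -0.13 (edgeR adjusted p = 0.0268).

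The nuclear step gave no call in the fit without correction. DROSHA (chr5:31400497-31532196, minus strand) stood at 84.3 and 78.6 CPM in controls, 78.6 and 79.7 with hairpin 1, and 78.3 and 78.2 with hairpin 2. Control replicate 1 was highest, and control replicate 2 lay within the range of the knockdown libraries. The log2 change with both hairpins was -0.05 ± 0.04 (edgeR adjusted p = 0.347). After correction for GC content and length it was -0.26 (edgeR adjusted p = 0.000611), so DROSHA's place depends on that correction. DGCR8 (chr22:20080232-20111877, plus strand) stood at 59.9 and 59.4 CPM in controls, 55.2 and 57.0 with hairpin 1, and 58.6 and 54.7 with hairpin 2. All 4 knockdown libraries lay below both controls, and the difference of -0.08 ± 0.05 with both hairpins was not called (edgeR adjusted p = 0.177), nor after correction (-0.07, edgeR adjusted p = 0.223).

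XPO5, the exporter of precursor hairpins, rose with hairpin 1 and was not called with hairpin 2. XPO5 (chr6:43522330-43576075, minus strand) stood at 188 and 183 CPM in controls, 221 and 221 with hairpin 1, and 177 and 180 with hairpin 2. Both hairpin 1 libraries were above all the others, and both hairpin 2 libraries were below both controls. The log2 change was 0.26 ± 0.04 with hairpin 1 (edgeR adjusted p = 0.000664) and -0.05 ± 0.04 with hairpin 2 (edgeR adjusted p = 0.274). The difference between the hairpins was -0.31 ± 0.04 (edgeR adjusted p = 0.000247) and was -0.30 after correction for GC content and length. Corrected, XPO5 changed by 0.10 with hairpin 1 (edgeR adjusted p = 0.0429) and by -0.20 with hairpin 2 (edgeR adjusted p = 0.00158). With both hairpins together, the log2 change was 0.10 ± 0.03 (edgeR adjusted p = 0.0344) and turned to -0.05 after correction (edgeR adjusted p = 0.253). That call was also lost with a block for the replicate number (edgeR adjusted p = 0.0627) and with no filter on low counts (edgeR adjusted p = 0.0702). It was lost as well without either control library, without hairpin 1 replicate 1 and without either hairpin 2 library, with changes of 0.078 to 0.117.

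AGO1 had the largest log2 change of the 9 tested members with both hairpins. AGO1 (chr1:35869808-35930528, plus strand) stood at 43.6 and 45.0 CPM in controls, 88.3 and 85.5 with hairpin 1, and 74.9 and 73.9 with hairpin 2. The 3 groups did not overlap. The log2 change was 0.97 ± 0.05 with hairpin 1 (edgeR adjusted p = 1.44e-06) and 0.75 ± 0.05 with hairpin 2 (edgeR adjusted p = 7.5e-06), with hairpin 2 lower than hairpin 1 by -0.22 ± 0.04 (edgeR adjusted p = 0.00365). After correction for GC content and length, the changes were 0.58 with hairpin 1 and 0.33 with hairpin 2 and kept their calls.

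AGO2, the Argonaute that can cut its targets, moved less. It stood at 26.4 and 26.7 CPM in controls, 33.7 and 29.2 with hairpin 1, and 29.6 and 30.6 with hairpin 2. All 4 knockdown libraries were above both controls, with hairpin 1 replicate 1 highest. The log2 change was 0.21 ± 0.07 with both hairpins (edgeR adjusted p = 0.0377), 0.24 ± 0.08 with hairpin 1 (edgeR adjusted p = 0.0371) and 0.18 ± 0.08 with hairpin 2 (edgeR adjusted p = 0.107). After correction the direction turned: -0.20 with both hairpins (edgeR adjusted p = 0.033), -0.15 with hairpin 1 (edgeR adjusted p = 0.126) and -0.24 with hairpin 2 (edgeR adjusted p = 0.0263). The call with both hairpins was also lost without any 1 library other than hairpin 1 replicate 2 (edgeR adjusted p = 0.069 to 0.153), and the hairpin 1 call without any of the same 5 libraries (edgeR adjusted p = 0.0574 to 0.232). Without hairpin 1 replicate 1 the hairpin 1 change was 0.14. With a block for the replicate number both calls were lost (edgeR adjusted p = 0.0562 for each). With no filter on low counts both were lost too (edgeR adjusted p = 0.0862 with both hairpins and 0.083 with hairpin 1). The hairpin 1 call was also lost with only the groups compared (edgeR adjusted p = 0.0553).

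**Figure D2:**
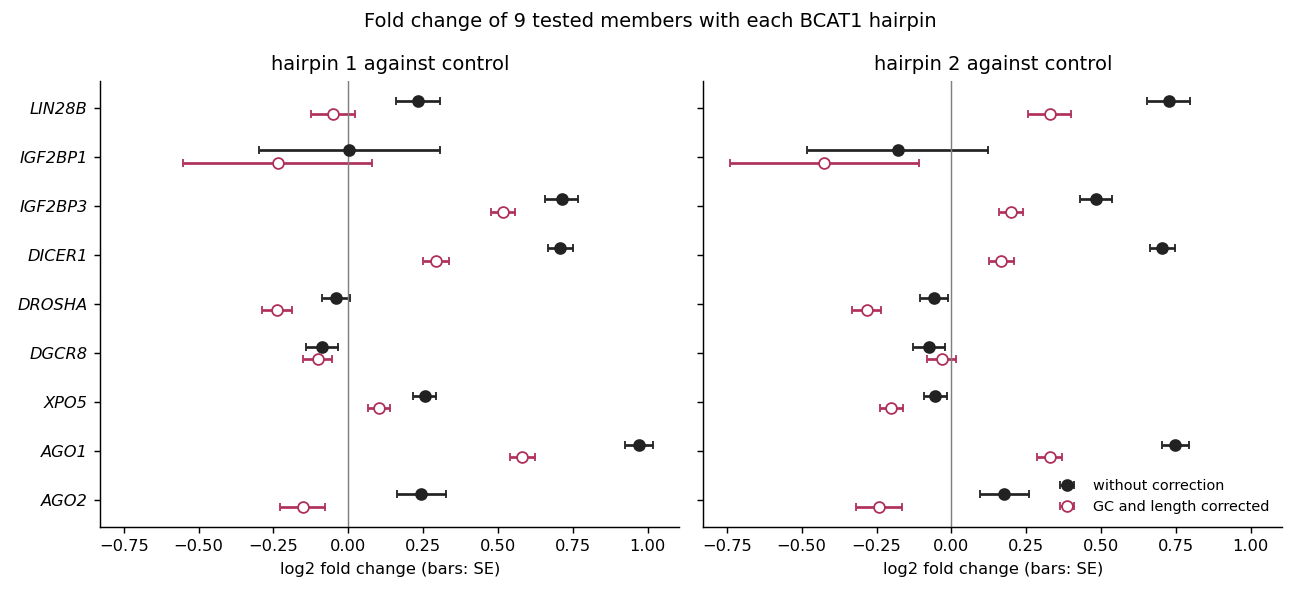
The log2 change of the 9 tested members is plotted for hairpin 1 (left) and hairpin 2 (right) against control, with bars for the standard error, without correction (filled) and corrected for GC content and length (open). LIN28B lies at 0.23 with hairpin 1 and 0.73 with hairpin 2, and the corrected values of AGO2 and DROSHA lie below 0 in both panels.

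The order of the members in the cells was read per length, as CPM per kilobase of merged exons. In controls XPO5 was highest (21.8 ± 0.43, SD, n = 2), followed by IGF2BP3 (10.8 ± 0.71), DROSHA (10.5 ± 0.52), DGCR8 (8.15 ± 0.047), DICER1 (5.61 ± 0.028), LIN28B (5.13 ± 0.058), AGO1 (3.19 ± 0.074) and AGO2 (1.68 ± 0.013), with IGF2BP1 at 0.0924 ± 0.0048. IGF2BP3 and DROSHA did not differ beyond their spread. With hairpin 1 DICER1 stood at 9.17 and DGCR8 at 7.67 CPM per kilobase, the reverse of their order in controls. AGO1 at 6.26 and LIN28B at 6.03 also changed places with hairpin 1, and with hairpin 2 LIN28B stood at 8.49 ± 0.76, next to DGCR8 at 7.74. These levels were not corrected for GC content and length, and whether the changes of order hold after correction was not tested. Corrected log2 changes with hairpin 1 were 0.29 for DICER1 (uncorrected 0.71), -0.10 for DGCR8 (-0.09), 0.58 for AGO1 (0.97) and -0.05 for LIN28B (0.23).

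**Figure D3:**
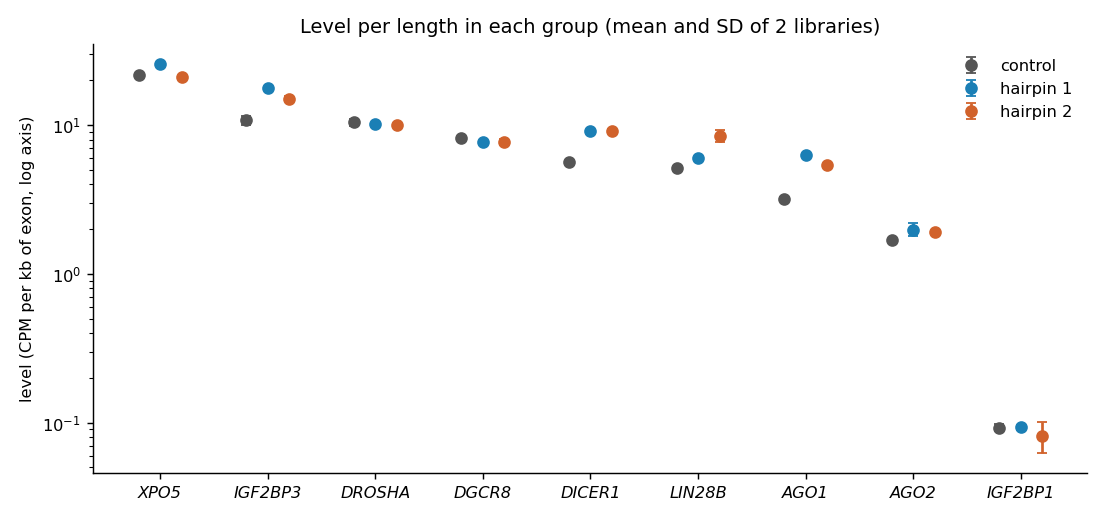
CPM per kilobase of merged exons is plotted on a log axis for the 9 tested members, as the mean of the 2 libraries of each group with bars for the SD. XPO5 is highest in all 3 groups and IGF2BP1 lowest.

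The wider set of let-7 targets held genes that rose and genes that fell. Of 37 other targets listed, 34 were tested; 16 rose and 9 fell with both hairpins, 15 and 8 with hairpin 1, and 14 and 9 with hairpin 2. Over all tested genes, 23.6% rose and 26.4% fell with both hairpins, with like shares for each hairpin alone (24.2% and 24.9%, and 23.9% and 25.4%). CDK6 and IGF1R, named after their values were seen, are among the 9 that fell, although called higher with hairpin 2 (0.36 and 0.14). After correction they were lower with hairpin 2 (-0.20 and -0.13). PLAGL2 is among the 16 that rose, although called lower with hairpin 2 (-0.19, and -0.29 after correction). The median log2 change of the list was 0.21 with both hairpins, where that of all tested genes was -0.01, and it was 0.03 after correction for GC content and length. HMGA1, a paralog of HMGA2, fell from 244 and 242 CPM in controls to 157 and 160 with hairpin 1 and 160 and 167 with hairpin 2 (log2 change with both -0.59, edgeR adjusted p = 4.88e-06). IRS2, an adaptor of the insulin receptor, rose from 28.7 and 27.9 CPM to 44.1 and 42.7 with hairpin 1 and 54.5 and 50.1 with hairpin 2 (log2 change with both 0.75, edgeR adjusted p = 1.51e-05). PRTG, a cell surface protein of the early embryo, rose from 13.4 and 13.3 CPM to 27.5 and 26.7, and to 29.98 and 26.1 (log2 change with both 1.05, edgeR adjusted p = 1.61e-05). These 3 kept their direction and call after correction.

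Between the hairpins, 10 of the 34 tested targets were higher with hairpin 2 and 11 lower, beside 46.2% of all tested genes called. PLAGL2, a zinc finger transcription factor, was among the 11. It rose from 17.0 and 18.1 CPM in controls to 57.0 and 57.1 with hairpin 1 and was 15.4 and 15.3 with hairpin 2, a log2 difference between hairpins of -1.9 ± 0.07 (edgeR adjusted p = 3.53e-07). MYCN, also listed and named after its value was seen, had a log2 change of -0.34 with both hairpins, and -0.15 after correction (edgeR adjusted p = 9.46e-05 and 0.00458). TRIM71, a let-7 target and stem cell RNA-binding protein, held 29 to 59 counts per library (log2 change with both 0.38, edgeR adjusted p = 0.226, and 0.08 after correction).

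Of the 34 tested targets, 27 held a seed match in their 3′ untranslated region, and 13 of these rose and 6 fell with both hairpins. Of the 7 with no match, 3 rose and 3 fell, beside 23.6% of all tested genes higher and 26.4% lower. The median log2 change with both hairpins was 0.21 for targets with a match and -0.12 for those with none. After correction for GC content and length these medians were 0.04 and 0.02. Across all tested genes with a 3′ untranslated region, the median log2 change with both hairpins was -0.03 for 12161 genes with no match, 0.10 for 1396 genes with 1 match and 0.20 for 205 with more. The median length of the region in these 3 classes was 1300, 3066 and 5124 bases, and after correction for GC content and length the medians were -0.04, -0.04 and -0.06. Among regions of 1733 to 5335 bases, the uncorrected median was 0.14 for 4062 genes with no match and 0.16 for 801 with a match.

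**Figure D4:**
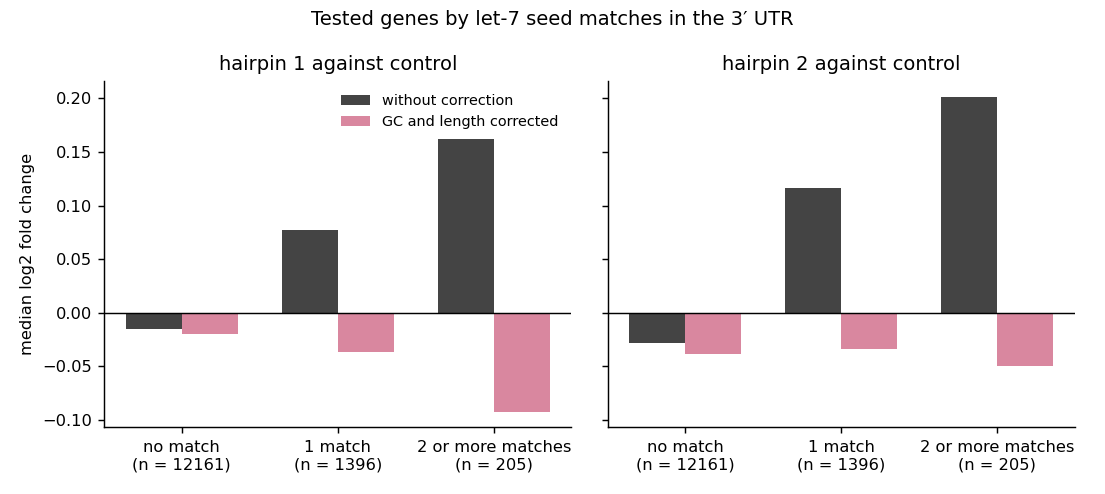
Bars give the median log2 change of tested genes with no seed match, 1 match or 2 or more in the 3′ untranslated region, for hairpin 1 (left) and hairpin 2 (right), without correction (dark) and corrected for GC content and length (pink). Uncorrected medians with 2 or more matches were 0.16 with hairpin 1 and 0.20 with hairpin 2, and the corrected ones were -0.09 and -0.05.

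Other genes of microRNA processing and let-7 turnover went both ways. Of 19 tested, 7 rose and 7 fell with both hairpins, 5 and 7 with hairpin 1, and 9 and 6 with hairpin 2, beside 50%, 49.1% and 49.3% of all tested genes called. TUT7, an enzyme that adds uridines to let-7 precursors, rose from 13.9 and 14.1 CPM in controls to 24.96 and 27.2 with hairpin 1 and 26.5 and 23.9 with hairpin 2 (log2 change with both 0.87, edgeR adjusted p = 3.63e-05, and 0.56 after correction). DDX17, a helicase of the DROSHA complex, rose by 0.50 on the log2 scale (edgeR adjusted p = 1.27e-05), and by 0.31 after correction. RAN, the GTPase on which XPO5 depends for export, fell from 965 and 925 CPM to 712 and 678, and to 709 and 705 (log2 change with both -0.43, edgeR adjusted p = 2.43e-05, and -0.53 after correction). TARBP2, the double-stranded RNA-binding partner of DICER1, fell from 63.2 and 59.5 CPM to 36.1 and 32.9 with hairpin 1 and 48.6 and 48.8 with hairpin 2. Its log2 change was -0.83 with hairpin 1 and -0.33 with hairpin 2, and the latter was 0.01 after correction (edgeR adjusted p = 0.903). TUT4 and DIS3L2, which complete the known let-7 precursor decay route and were named after their values were seen, had log2 changes with both hairpins of 0.45 (edgeR adjusted p = 0.000831) and 0.21 (edgeR adjusted p = 0.0431). After correction TUT4 was no longer called (0.12, edgeR adjusted p = 0.152), and DIS3L2 kept its call (0.29, edgeR adjusted p = 0.00384).

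More of the other silencing factors rose than fell before correction. Of 20 tested, 13 rose and 3 fell with both hairpins, with a median log2 change of 0.37, beside 23.6% of all tested genes higher and 26.4% lower. Corrected for GC content and length, 6 rose and 6 fell, with a median of 0.02, beside 19.3% and 26.8% of all genes. TNRC6C, a scaffold that links Argonaute to the deadenylases, rose from 16.8 and 18.7 CPM in controls to 35.5 and 34.0 with hairpin 1 and 35.7 and 38.6 with hairpin 2 (log2 change with both 1.02, edgeR adjusted p = 1.18e-05, and 0.76 after correction). TNRC6A, its paralog, rose by 0.47 on the log2 scale with both hairpins (0.15 after correction), with hairpin 2 above hairpin 1 by 0.36 (edgeR adjusted p = 0.000191). HSP90AB1, a chaperone that helps load Argonaute, fell from 3093 and 3108 CPM to 999 and 946 with hairpin 1 and 2572 and 2562 with hairpin 2. The difference between the hairpins was 1.40 ± 0.04 on the log2 scale (edgeR adjusted p = 1.56e-07) and 1.38 after correction. HSP90AA1, the other cytosolic form, rose by 0.49 with both hairpins (edgeR adjusted p = 2.59e-05), and by 0.38 after correction.

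The neighbours of AGO1 were named after their values were seen. AGO4, AGO1 and AGO3 lie in a row on the plus strand of chromosome 1. AGO3 stood at 33.3 and 36.5 CPM in controls, 39.6 and 42.6 with hairpin 1, and 55.5 and 55.7 with hairpin 2. AGO4 stood at 16.3 and 17.8, then 15.5 and 18.2, then 28.7 and 31.0. Both were higher with hairpin 2 than with hairpin 1, by 0.44 and 0.83 on the log2 scale (edgeR adjusted p = 0.000755 and 0.000232), where AGO1 was lower by -0.22. These differences were 0.36 for AGO3, 0.77 for AGO4 and -0.25 for AGO1 after correction.

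let-7 hairpins themselves gave almost no counts. Of the 12 let-7 genes listed, 10 had a row and none passed the filter, with 9 counts the most in any library (MIRLET7D); the other 2 were not analysed here. Of 22 microRNA host transcripts listed, 15 were tested; 5 rose and 4 fell with both hairpins, beside 23.6% and 26.4% of all tested genes. MIRLET7BHG, the host of let-7a-3 and let-7b, rose from 9.97 and 8.40 CPM in controls to 18.4 and 19.4 with hairpin 1 and 14.3 and 14.5 with hairpin 2. Its log2 change was 1.04 ± 0.11 with hairpin 1 (edgeR adjusted p = 7.35e-05) and 0.65 ± 0.11 with hairpin 2 (edgeR adjusted p = 0.00113), and the values after correction were 1.14 and 0.82. MCM7, the host of the miR-106b cluster and a helicase subunit, fell by 0.40 on the log2 scale with both hairpins (edgeR adjusted p = 0.000129), and by 0.24 after correction. DNM3OS, the host of miR-199a-2 and miR-214, fell by 0.69 (edgeR adjusted p = 0.000216), and by 0.88 after correction. HUWE1, a ubiquitin ligase that hosts let-7f-2 and miR-98, rose by 0.26 (edgeR adjusted p = 0.000414), which was -0.06 after correction (edgeR adjusted p = 0.111). A host transcript's level is not a measure of the mature microRNA.

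**Figure D5:**
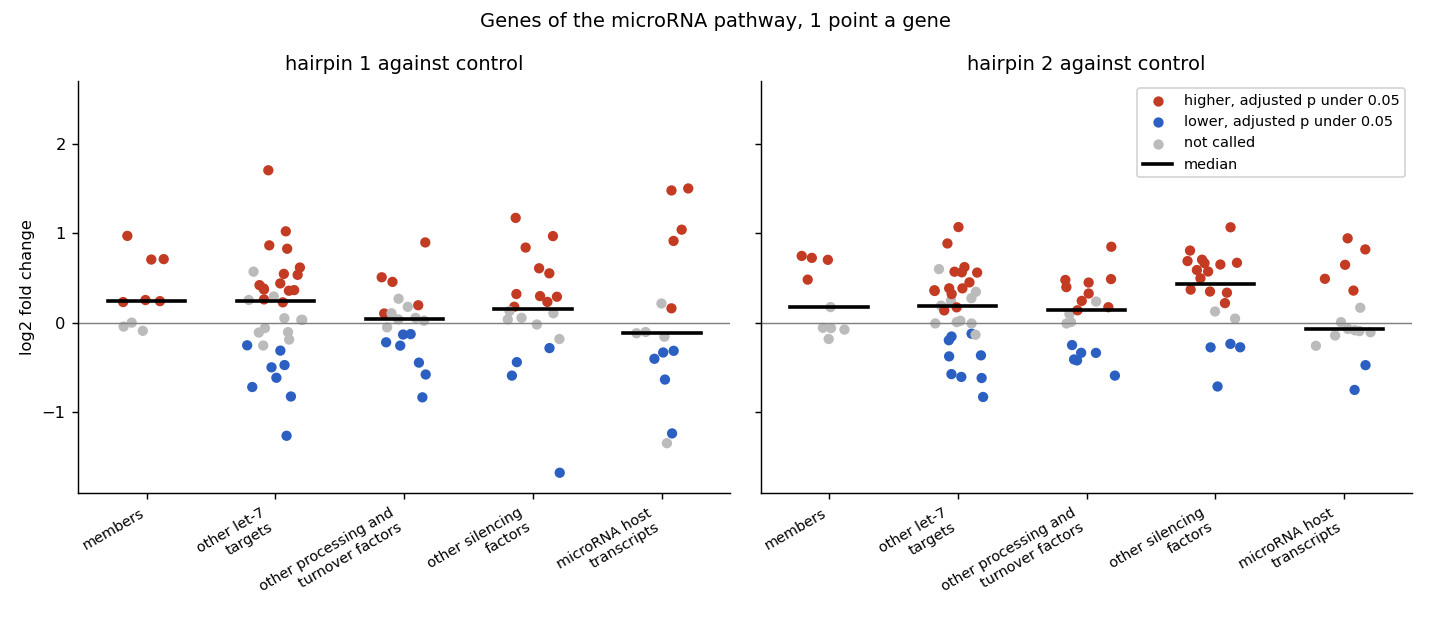
Each point is the log2 change of a tested gene with hairpin 1 (left) or hairpin 2 (right) against control, for the members and 4 lists, coloured by call, with a line at the median. Every list holds genes on both sides of 0, and the median of the silencing factors is 0.16 with hairpin 1 and 0.43 with hairpin 2.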

How the data were processed

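Bulk RNA sequencing gave 6 libraries, 2 per group. The authors deposited whole-number counts per Ensembl gene. The submitters' processing notes name HISAT2 2.2.0, StringTie and hg38; counting options and use of strand were not given in the sources used here. Coordinates, exons and 3′ untranslated regions came from GENCODE release 29 on hg38, and miRNAs from RefSeq.

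Genes were filtered with filterByExpr (minimum count 10) and scaled with TMM. They were tested with edgeR 4.0.16 in R 4.3.3 by the quasi-likelihood F test, two-sided, on all 6 libraries (3 residual degrees of freedom). Benjamini-Hochberg adjustment ran over all 18734 genes, with a threshold of 0.05. The common biological coefficient of variation was 8.66%. Libraries of a group differed by more than sampling noise (mean chi-square per gene 5.86 to 8.6). The members and lists were chosen with earlier results of these data known. The text names every member and, from each other list, the 4 genes with the smallest p with both hairpins among those with a mean CPM of at least 5, plus LIN28A and TRIM71. Genes named outside this rule are marked in the text as named after their values were seen. On simulated counts of both hairpins against control (18366 genes, 200 changed), the test recovered 60.3% of log2 changes of 0.5, 77.3% of 1 and 100% of 2, and 13.2% of 182 calls were false. That false share exceeded the threshold of 0.05. In the data 50% of genes were called with both hairpins, a far larger share than was changed here, so these rates need not hold there. The correction for GC content and length used an mgcv 1.9.3 smooth per library, on the 17459 tested genes with both. Other alternatives were RLE size factors, DESeq2 1.42.0, limma-voom (3.58.1), a replicate block, other filters, a fold threshold and leaving out each library. Floors of 3 counts cover counting error only.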

Additional observations from a re-analysis of the deposited data

Results flagged for a closer look

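The hairpins differed by a direct test for 4 of the 9 tested members, beside 46.2% of all tested genes called between the hairpins. Set against hairpin 1, LIN28B was higher with hairpin 2 by 0.49 on the log2 scale, and in both hairpin 2 libraries. IGF2BP3 had a difference of -0.23, XPO5 of -0.31 and AGO1 of -0.22, with both hairpin 2 libraries below both hairpin 1 libraries for each. BCAT1 itself was at 113 CPM with hairpin 2 and 55.5 with hairpin 1, and whether this bears on the differences was not tested.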

How the results depend on the processing

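AGO1, DICER1 and IGF2BP3 rose with each hairpin, and LIN28B with hairpin 2, under every alternative but the fold threshold of 1.5, under which only AGO1 and DICER1 were called. That threshold called 2 members with both hairpins, 2 with each hairpin alone and 0 between the hairpins, and 1039, 1769, 1397 and 1774 of all genes in the same order. With hairpin 2 against control, 19.7% of 17459 genes were higher and 25.7% lower after correction for GC content and length. With the replicate block added, 3342 of these genes were higher and 4443 lower. That correction called 7 members with hairpin 2 against control, and 7 with the block, beside 4 without correction. It turned, with and without the block, XPO5 (-0.049, and -0.048 with the block) and AGO2 (-0.20) with both hairpins, LIN28B (-0.051), IGF2BP1 (-0.24) and AGO2 (-0.15) with hairpin 1, and AGO2 with hairpin 2 (-0.24). The cause was not tested.

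Leaving out 1 library at a time assumes that an arm of 1 library varies like the others. It turned small differences, none of them called in the fit to all libraries. IGF2BP1 ran from -0.23 to 0.023 with both hairpins, from -0.052 to 0.053 with hairpin 1 (-0.021 without hairpin 1 replicate 2), from -0.45 to 0.045 with hairpin 2 and from -0.45 to 0.044 between the hairpins; all but the hairpin 1 values turned without hairpin 2 replicate 2. DROSHA with hairpin 1 ran from -0.094 to 0.0072, turning without control replicate 1. Between the hairpins, DICER1 ran from -0.041 to 0.034, turning without hairpin 2 replicate 2. DGCR8 ran there from -0.040 to 0.066, turning without hairpin 1 replicate 1 (-0.011) or hairpin 2 replicate 1, and AGO2 from -0.17 to 0.039, turning without hairpin 1 replicate 1. No filter turned IGF2BP1 with hairpin 1 (-0.0034), and a stricter filter DICER1 between the hairpins (0.0069).

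Deviations of same-numbered libraries from their group means had correlations of 0.00435, -0.0377 and -0.0331, so the numbers did not pair the libraries. With the replicate block, 4 members were called with both hairpins, 5 with hairpin 1, 4 with hairpin 2 and 4 between the hairpins. Of all 18734 genes in that fit, 4211 were higher and 4789 lower with both hairpins, and 4306 and 4496 with hairpin 1. The numbers were 4256 and 4585 with hairpin 2, and 4076 and 4142 between the hairpins. Depth limits HMGA2, LIN28A and the let-7 rows to a few counts, and IGF2BP1 and TRIM71 to under 60.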

Other observations

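Among the silencing factors, the decapping pair DCP1A and DCP2 moved in opposite order between the hairpins. Both were named after their values were seen. Of the 20 silencing factors tested, 12 were higher with hairpin 2 than with hairpin 1 and 6 lower, beside 46.2% of all tested genes called. DCP2, the enzyme that removes the cap of a messenger RNA, stood at 47.4 and 48.7 CPM in controls, 35.5 and 35.3 with hairpin 1, and 77.6 and 74.9 with hairpin 2. It fell with hairpin 1 by 0.44 on the log2 scale and rose with hairpin 2 by 0.67 (edgeR adjusted p = 0.000157 and 1.75e-05), the latter 0.13 after correction for GC content and length (edgeR adjusted p = 0.0506). DCP1A, its cofactor, stood at 16.8 and 18.8 CPM in controls, 41.3 and 38.98 with hairpin 1, and 23.3 and 21.7 with hairpin 2. DCP1A rose with hairpin 1 by 1.17 on the log2 scale (0.92 after correction). With hairpin 2 it rose by 0.34 (edgeR adjusted p = 0.0108), which was 0.04 after correction (edgeR adjusted p = 0.697). The difference of hairpin 2 from hairpin 1 was 1.10 for DCP2 and -0.83 for DCP1A (edgeR adjusted p = 1.09e-06 and 7.54e-05).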
